A study of Mus musculus with 12 samples.

Results

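The Schlafen genes are a mouse family that takes its name from the German word for sleep, and 7 of them, Slfn1, Slfn2, Slfn3, Slfn4, Slfn5, Slfn8 and Slfn9, were followed across 12 Agilent 1-colour arrays of CD8+ T cells. The genes were chosen by symbol. A probe took its gene symbol from the transcript accession that the array design gives it, and the brightest probe that was well above background on 2 or more arrays stood for each gene. Of the 7 genes, 6 had such a probe, and each of these was well above background on all 12 arrays. They stood among 25385 features kept on the arrays, 13882 of them named genes.

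Total CD8+ T cells of gut-draining mesenteric lymph nodes (MLN) came from 1 AID KO, 1 uMT and 2 WT samples. Those of peripheral lymph nodes (PLN) likewise came from 1 AID KO, 1 uMT and 2 WT samples. Naive cells, with low CD44, came from PLN of AID KO and uMT mice and were split by sorting into a Sca1p and a Sca1m fraction (1 array each), which the sorting protocol of the labels lets one read as Sca-1 positive and negative. All samples were from female C57BL/6 mice and were purified with magnetic beads, with flow cytometry for sorted fractions. AID KO stands for a knockout of activation-induced deaminase, the enzyme of antibody class switching and hypermutation, and uMT mice lack mature B cells, and the 2 genotypes are called knockouts where they are pooled. Per the series' own description there were no replicates, and the labels do not say whether arrays of 1 group are separate animals. Each p-value therefore sets a difference against the spread of arrays around the terms of the fit, and not against a known spread between animals. Each array gives 1 sample of sorted cells in bulk, so a change in the share of a cell type and a change in RNA per cell cannot be told apart.

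As background, the mouse family falls into short proteins (Slfn1, Slfn2), intermediate ones (Slfn3, Slfn4) and long ones with a helicase-like part (Slfn5, Slfn8, Slfn9). Slfn1 slows the growth of developing T cells when it is overexpressed in mice, and Slfn2 is needed for T cells to hold quiescence: in mice with the elektra mutation of Slfn2, T cells enter a semi-activated state and die on stimulation. Several members are induced by type I interferon, which acts through the receptor Ifnar1 and Ifnar2, the kinases Jak1 and Tyk2, and transcription factors that bind a DNA element called the interferon-stimulated response element (ISRE).

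The genes lie side by side on mouse chromosome 11, in the order Slfn5, Slfn9, Slfn8, Slfn10-ps, Slfn2, Slfn1, Slfn4, Slfn3 and Slfn14 in the RefSeq gene table of GRCm38.p6. RefSeq promoters of the same build, 250 bases before to 50 after each start site, were searched on both strands for a core of the ISRE, GAAANNGAAA, and it was found in the first promoter of Slfn5, Slfn8 and Slfn9, while the windows of Slfn1, Slfn2, Slfn3 and Slfn4 held no match to these letters. The 100 bases around each match are given here, 5′ to 3′ on the strand of the gene, because the members with a match include the one that passed the test described next; capitals mark the match, which for Slfn8 and Slfn9 reads on the opposite strand. The Slfn5 stretch is chr11:82951902-82952001 on the plus strand, that of Slfn8 is chr11:83020804-83020903 on the minus strand and that of Slfn9 is chr11:82991821-82991920 on the minus strand.
Slfn5: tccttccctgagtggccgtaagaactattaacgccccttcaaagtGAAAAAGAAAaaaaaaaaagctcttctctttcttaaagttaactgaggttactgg
Slfn8: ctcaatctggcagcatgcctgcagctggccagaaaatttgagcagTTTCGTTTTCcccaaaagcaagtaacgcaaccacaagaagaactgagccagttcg
Slfn9: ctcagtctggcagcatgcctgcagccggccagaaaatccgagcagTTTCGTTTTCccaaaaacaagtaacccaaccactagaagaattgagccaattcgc
The match began 155 bases before the start site in Slfn5, 48 bases before it in Slfn8 and 45 bases before it in Slfn9. Over all 32851 promoters listed there, 3.44% held the core, and among 39 promoters of genes on a type I interferon response list 35.9% did. The Slfn8 and Slfn9 windows were the most alike of 21 pairs of member promoters, with 82.0% of 300 bases identical in a global alignment. The other 20 pairs had 43.7% to 52.7%. The Slfn8 and Slfn9 matches thus sit in similar sequence and are not independent. A second motif, the core TTCNNNGAA of the interferon-gamma activated site, had no match in any of the 7 members' windows and stood in 8.30% of all promoters. A match is a string of letters and shows no binding.

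In MLN, Slfn5, a nuclear protein induced by interferon, was 2.98-fold higher in the knockouts than in WT, and it was the only member of 6 to pass the test there, beside 0.221% of all features. The intensities below are log2 values minus the 75th percentile of each array, so that 0 is a probe at that percentile; they compare arrays for 1 gene and not genes with each other. Slfn5 had 2.52 in AID KO and 3.50 in uMT MLN cells, against 1.64 and 1.22 in the 2 WT MLN samples. Both knockouts lay above both WT samples, and the uMT sample was the highest of the 12 arrays. Beside the WT MLN array that shared its slide, each knockout was higher, by 1.30 for AID KO and by 1.85 for uMT, while the 2 WT samples differed by −0.42 (slide 2 minus slide 1). The fitted difference was 1.58 ± 0.11 (log2 ± SE; limma adjusted p = 0.0255 over all features).

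The other 2 probes of Slfn5 also put both knockouts above both WT MLN samples. The second had 1.60 and 2.50 in AID KO and uMT MLN cells, against 0.80 and 0.55 in WT MLN cells. The third, a dim probe well above background on 10 arrays, had −3.61 and −2.93 in AID KO and uMT MLN cells, against −4.40 and −4.34 in WT MLN cells. With the mean of the 3 probes the difference was 1.35 and missed the threshold (limma adjusted p = 0.126).

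Of the 6 members tested in MLN, 5 had an unadjusted p under 0.05, beside 13.4% of all features. The call for Slfn5 was lost when any 1 of the 12 arrays was left out (log2 difference 1.44 to 1.71, adjusted p 0.0931 to 0.554), and its sign was positive each time. For all 6 members both knockouts lay above both WT MLN samples, a pattern that 15.7% of features show (higher in both knockouts).

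Slfn8, a long member, had 3.55 in AID KO and 3.62 in uMT MLN cells, against 2.71 and 2.82 in WT MLN cells. The knockout arrays lay close together and apart from WT, with a fitted difference of 0.82 ± 0.13 that missed the threshold (limma adjusted p = 0.132). Its second probe, of another transcript, had −1.23 and −0.84 in AID KO and uMT MLN cells, against −1.24 and −1.46 in WT MLN cells, so the AID KO sample lay at the level of the first WT sample there.

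Slfn1, the growth-slowing short member, had 0.48 in AID KO and 0.78 in uMT MLN cells, against −0.07 and −0.44 in WT MLN cells. Within their slides the knockouts exceeded WT by 0.92 and 0.85, while the WT samples differed by −0.37 (slide 2 minus slide 1), and the fitted difference of 0.89 ± 0.12 missed the threshold (limma adjusted p = 0.101).

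Slfn2, the quiescence gene, had 3.38 in AID KO and 3.67 in uMT MLN cells, against 2.82 and 2.84 in WT MLN cells. The 2 WT samples differed by 0.02, and the knockouts stood 0.54 and 0.85 above the WT array of their slide. The fitted difference was 0.70 ± 0.12 (limma adjusted p = 0.148).

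Slfn9 and Slfn3 showed the smallest differences. Slfn9, the neighbour of Slfn8, had 3.46 in AID KO and 3.27 in uMT MLN cells, against 2.99 and 3.01 in WT MLN cells, a fitted 0.36 ± 0.12 (limma adjusted p = 0.320). Slfn3, an intermediate member, was dim, with −3.28 and −2.95 in AID KO and uMT MLN cells, against −3.33 and −3.45 in WT MLN cells, a fitted 0.27 ± 0.16 (limma adjusted p = 0.50). For Slfn3 the AID KO sample lay only just above the WT samples, and without it the fitted difference was −0.042. Slfn9 had a second probe that differed by slide: it read 1.28 higher on slide 2 than on slide 1 in WT PLN cells and 1.33 higher in WT MLN cells, and its differences from WT in MLN were −0.15 for AID KO and 0.42 for uMT. Whether probes of these close relatives bind each other's transcripts was not tested.

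In PLN, where the same question was asked of knockout and WT cells, no member passed the threshold, as no feature did (0% of 25385 features called by limma, against 2189 features at an unadjusted p under 0.05). Slfn5 had 2.16 in AID KO and 1.95 in uMT PLN cells, against 2.43 and 1.93 in WT PLN cells. The groups overlapped, and the fitted difference was −0.13 ± 0.11 (limma adjusted p = 0.824). Slfn2 was the 1 member whose PLN groups did not overlap (higher in both knockouts, as for 12.5% of features), with 3.58 and 3.54 in AID KO and uMT, against 3.28 and 3.22 in WT. Its fitted difference was 0.31 ± 0.12 (limma adjusted p = 0.563).

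Slfn1 had 0.72 in AID KO and 0.30 in uMT PLN cells, against 0.49 and 0.04 in WT PLN cells, and each knockout stood above the WT array of its slide, by 0.22 and 0.26, although the groups overlapped. Slfn8 had 3.16 and 3.09 in AID KO and uMT PLN cells, against 2.92 and 3.14 in WT PLN cells. Both knockout values lay near the higher WT value. Slfn9 had 3.29 and 3.10 in AID KO and uMT PLN cells, against 3.15 and 3.30 in WT PLN cells, and Slfn3 had −3.20 and −2.86 in AID KO and uMT, against −2.85 and −3.34 in WT. For both genes the groups overlapped, and the fitted differences were −0.03 ± 0.12 and 0.07 ± 0.16 (limma adjusted p = 0.979 and 0.956).

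The difference between the MLN and the PLN contrast was itself tested, and no member passed the threshold, as no feature did (0% called, with 1067 features at an unadjusted p under 0.05). It was 1.70 ± 0.15 for Slfn5 (limma adjusted p = 0.124), 0.72 ± 0.18 for Slfn8 (limma adjusted p = 0.833) and 0.64 ± 0.16 for Slfn1 (limma adjusted p = 0.854). For Slfn2 and Slfn9 it was 0.39 ± 0.16 and 0.39 ± 0.17, and for Slfn3 0.21 ± 0.23 (limma adjusted p = 0.999 each). All 6 estimates were positive with a median of 0.52, beside 54.2% positive and a median of 0.03 over all features; that of Slfn3 was negative without any 1 of the AID KO MLN, AID KO PLN and first WT PLN arrays (lowest −0.11). After normexp background correction and quantile normalization the Slfn5 difference was 1.58 and passed the threshold (limma adjusted p = 0.0168).

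**Figure D1:**
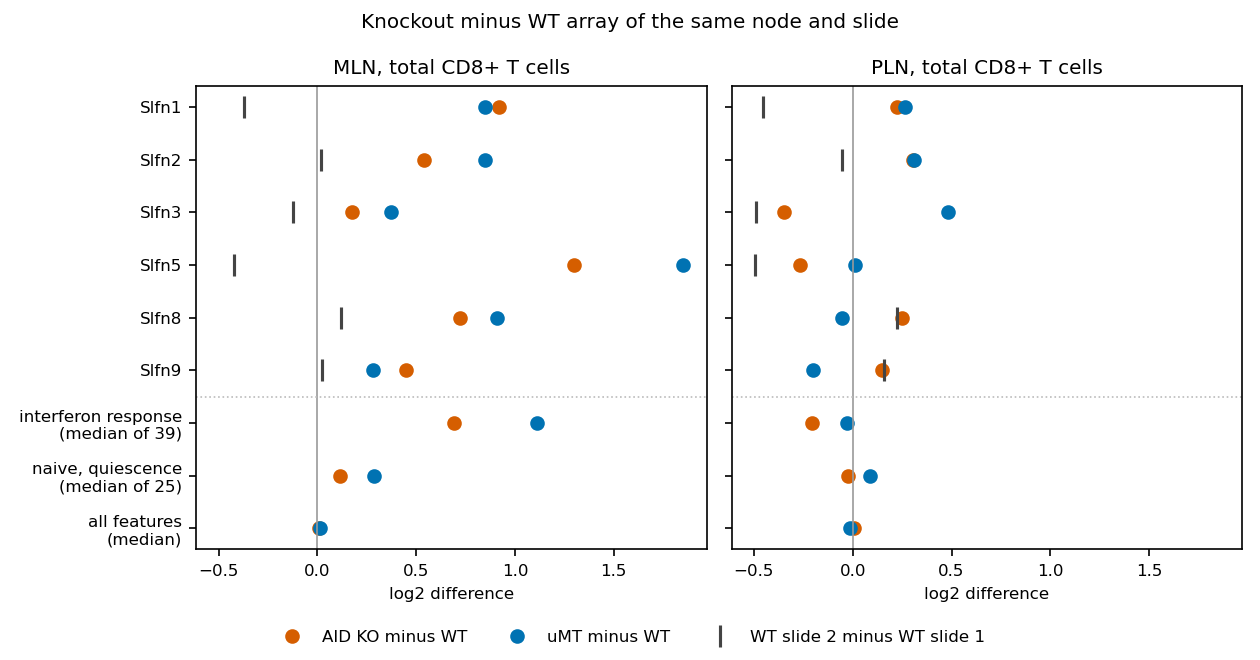
The x axis is the log2 difference of a knockout array from the WT array of the same node and slide, orange for AID KO and blue for uMT; upright ticks give the difference between the 2 WT arrays, and the 3 lowest rows are medians of gene lists. In MLN all 12 member points lie right of 0, up to 1.85, while in PLN they lie between −0.35 and 0.48.

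With both nodes pooled, no member passed in the knockouts against WT, beside 0.418% of all features. Slfn2 stood out as the 1 member whose 4 knockout arrays all lay above the 4 WT arrays, a pattern that 3.47% of features show; its lowest knockout value was 3.38 and its highest WT value 3.28. Its difference was 0.50 ± 0.11 (limma adjusted p = 0.109), and after normexp correction and quantile normalization it was 0.51 and passed (limma adjusted p = 0.0433). Slfn1 differed by 0.56 ± 0.15 (limma adjusted p = 0.155) and Slfn5 by 0.72 ± 0.36 (limma adjusted p = 0.350), an average over 1.58 in MLN and −0.13 in PLN.

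Taken one by one, AID KO and uMT gave no member call either, beside 0.914% and 0.0355% of all features. Against WT, Slfn2 differed by 0.44 ± 0.13 in AID KO and by 0.56 ± 0.13 in uMT (limma adjusted p = 0.219 and 0.157), and Slfn1 by 0.59 ± 0.18 and 0.54 ± 0.18 (limma adjusted p = 0.232 and 0.236). The 2 contrasts share the WT arrays. Set directly against each other, uMT and AID KO total cells gave no member call, beside 0.311% of all features; the differences, uMT minus AID KO, ran from −0.19 ± 0.16 for Slfn9 to 0.38 ± 0.50 for Slfn5.

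The nodes were compared with genotype held fixed in the same fit, and no member passed for MLN against PLN over all total cells (0.11% of features called). This average covers opposite signs in the 2 genotype classes for 4 of the 6 members, all but Slfn2 and Slfn3, so the node difference was also taken within each class, a comparison chosen after the values were seen. Within WT no member passed, beside 0.0118% of features. Slfn5 had 1.64 and 1.22 in WT MLN cells, against 2.43 and 1.93 in WT PLN cells, a fitted −0.75 ± 0.11 (limma adjusted p = 0.225). Each of the 6 members was lower in the WT MLN array than in the WT PLN array of the same slide, on both slides, as 36.3% of features were. For 5 of them, all but Slfn3, both WT MLN samples lay below both WT PLN samples, a pattern of 13.6% of features.

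Slfn1 was lower in WT MLN than in WT PLN cells by 0.56 on slide 1 and by 0.48 on slide 2 (fitted −0.52 ± 0.12, limma adjusted p = 0.479). For Slfn2 the fitted difference was −0.42 ± 0.12 (limma adjusted p = 0.580). Slfn3, Slfn8 and Slfn9 lay between −0.29 and −0.22. Within the knockouts no member passed, beside 0.0236% of features, and the largest estimates were 0.95 ± 0.11 for Slfn5 (limma adjusted p = 0.130) and 0.46 ± 0.13 for Slfn8 (limma adjusted p = 0.548). The other 4 members ran from −0.09 for Slfn3 to 0.17 for Slfn9. These contrasts share arrays with the genotype contrasts above, so the low WT MLN values enter both.

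**Figure D2:**
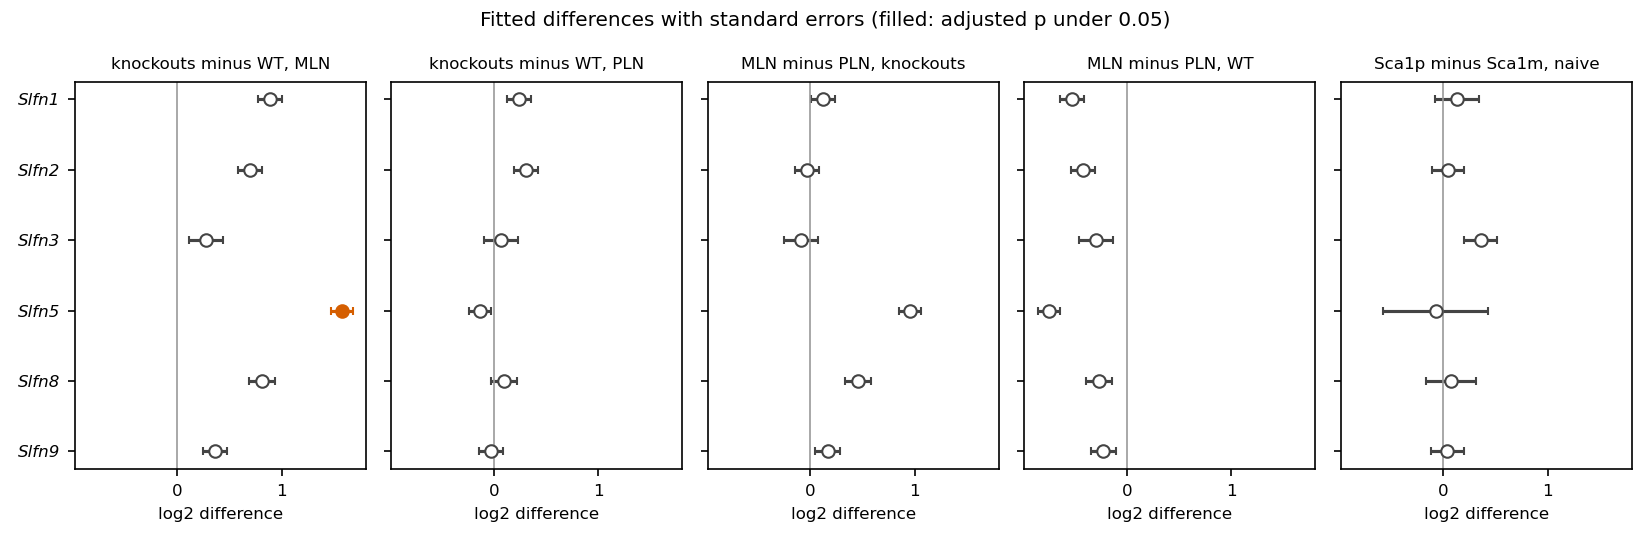
Points are fitted log2 differences and bars their standard errors, with the first-named group minus the second in each panel; a filled point passed the threshold. Slfn5 in MLN, at 1.58, is the only filled point of the 30.

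Among naive cells the Sca1p fraction was set against the Sca1m fraction. Ly6a, which encodes Sca-1 and checks the sort, had 3.91 and 3.42 in the AID KO and uMT Sca1p cells, against 0.07 and −0.07 in the Sca1m cells. No Schlafen member passed the threshold, beside 0.0158% of all features. Slfn3 was the 1 member with both Sca1p arrays above both Sca1m arrays, as for 17.6% of features, with −3.67 and −3.85 in AID KO and uMT Sca1p cells, against −4.0 and −4.25 in Sca1m cells; its difference was 0.36 ± 0.16 (limma adjusted p = 0.634).

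Slfn5 had 1.84 and 1.81 in AID KO and uMT Sca1p cells, against 1.91 and 1.89 in Sca1m cells. All 4 arrays lay within 1.81 to 1.91, and Slfn5 was the 1 member with both Sca1p arrays below both Sca1m arrays, as for 17% of features. Slfn2 had 3.49 and 3.39 in Sca1p cells, against 3.35 and 3.44 in Sca1m cells. The fractions overlapped for Slfn2, and the differences of the other 3 members, Slfn1, Slfn8 and Slfn9, were 0.13, 0.07 and 0.04. Their errors, 0.15 to 0.50 for these 5 members, come from a spread pooled over all 12 arrays; that of Slfn5, 0.50, is larger than the span of its 4 naive values. Between the genotypes, uMT against AID KO naive cells, no member passed, beside 0.351% of features, and the differences ran from −0.22 for Slfn3 to 0.08 for Slfn9. The naive arrays share a slide of their own, so they were not set against total cells.

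Slfn4, known from macrophages and other myeloid cells, was not well above background on any of the 12 arrays, so no difference is given for it; its values lay between −7.40 and −4.75, the highest in 1 WT MLN sample. Of the further Schlafen genes, the transcribed pseudogene Slfn10-ps was well above background on all 12 arrays and differed by 0.28 ± 0.11 in MLN (limma adjusted p = 0.366). Its second probe, also well above background on all 12 arrays, had the opposite sign in MLN. There AID KO differed by −0.17 and uMT by −0.65 from the WT array of the same slide. Slfn14, Slfnl1 and the antisense gene Slfn5os were not well above background on any array. Of the 5 protein-coding genes on each side, 6 in all were tested and lay between −0.30 and 0.53 in the same MLN contrast, with 0 called.

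To place the members among other genes of interferon action, 13 genes of interferon signalling and 44 of the type I interferon response were read from the same fit; these lists were drawn up with earlier results of the same arrays known. In MLN all 39 response genes that were tested had a positive difference, beside 51.7% of all features, and 14 passed the threshold, beside 0.221%. Their median was 0.86, beside a median of 0.76 for the 6 Schlafen members and 0.01 for all features. The largest were Ifi44 at 3.57 ± 0.18, Rsad2, an antiviral radical enzyme, at 3.37 ± 0.11, and the antiviral RNA-binding genes Ifit3b at 2.92 ± 0.16 and Ifit3 at 2.83 ± 0.15 (limma adjusted p = 0.0180 each). Slfn5 thus stood below these 4 and close to 2 signalling genes that were also higher in the knockouts. They were Usp18, which restrains the receptor, at 1.70 ± 0.10, and Irf7, a transcription factor of the response, at 1.52 ± 0.10 (limma adjusted p = 0.0217 and 0.0255). The signalling list as a whole had a median of 0.19 with 2 of 13 called, beside 0.221% of all features. In PLN 34 of the 39 response genes had a negative difference, beside 13341 of 25385 features, with a median of −0.13 and 0 called. Beside the WT PLN array of the same slide, the median was −0.21 for AID KO and −0.03 for uMT. Within WT, 38 of the 39 were lower in MLN than in PLN, beside 14540 of 25385 features, with a median of −0.33 and 0 called. Within the knockouts all 39 were higher in MLN, beside 50.9% of features. Their median was 0.76 and 1 was called, beside 0.0236%. The low WT MLN values thus enter the MLN contrast of these genes too.

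The family is known for quiescence, so lists of 25 genes of the naive and quiescent state and 20 genes of activation and cycling were read beside it. In MLN 18 of the 25 quiescence genes had a positive difference, beside 51.7% of all features, with a median of 0.17, and 0 passed. Btg2, which slows cell division, was at 0.41 ± 0.10 (limma adjusted p = 0.240). Of the 20 activation genes 17 had a negative difference, beside 12255 of 25385 features, with a median of −0.15, and 0 passed. Nr4a1, an early gene of T cell receptor signalling, was at −1.38 ± 0.18 (limma adjusted p = 0.100). Over both nodes Nr4a1 fell by 1.21 in the knockouts against WT (limma adjusted p = 0.0377). In AID KO alone Nr4a1, Ifng and Cd69 passed at −1.66, −1.47 and −0.92. These were the only 3 of the 20 called there, beside 0.914% of all features. In uMT against WT total cells Cd69, an early activation marker, had the opposite sign, at 0.47 ± 0.09 (limma adjusted p = 0.122), and it was higher in uMT than in AID KO cells by 1.39 ± 0.10 (limma adjusted p = 0.0140). For Ifng, which encodes interferon gamma, the difference of the uMT array from the WT array of its slide was −0.36 in MLN and −0.0032 in PLN. Of the 25 quiescence genes, 13 were higher and 12 lower in AID KO than in WT total cells, with a median of 0.04. Over all features 52.0% were higher there. The quiescence genes with the lowest p in that contrast, Tob1 and Foxp1, were lower, at −0.65 ± 0.11 and −0.30 ± 0.10 (limma adjusted p = 0.0671 and 0.241). In uMT against WT total cells 20 of the 25 were higher and 5 lower, with a median of 0.17 and 0 called. There 48.6% of all features were higher. An unadjusted p under 0.05 was found for 8 of the 25, beside 17.7% of features. Btg2 and Il7r had the lowest p there and were higher, at 0.55 ± 0.08 and 0.49 ± 0.09 (limma adjusted p = 0.107 and 0.121).

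Likeness over the arrays was measured by Pearson's r of log2 values centred within each slide, a description over arrays that share slides and groups. Over the 8 total-cell arrays the named genes most like Slfn5 were Irf7 (r = 0.998), Oasl2 (r = 0.996) and Oasl1 (r = 0.994), all 3 of them on the interferon lists. For Slfn8 they were Ifi27l2a (r = 0.989), Ifi44 (r = 0.987) and Gm4951 (r = 0.987), of which Ifi44 is on the response list. The genes most like the other members are on neither list. For Slfn2 the first was Fbxo6 (r = 0.989), for Slfn1 Garnl3 (r = 0.986), for Slfn3 Asah1 (r = 0.967) and for Slfn9 Slfn10-ps (r = 0.977). Over all 12 arrays the first was Daxx for Slfn5 (r = 0.986), Ifi44 for Slfn8 (r = 0.985), Ebf4 for Slfn1 (r = 0.981), Fbxo6 for Slfn2 (r = 0.978), Slfn10-ps for Slfn9 (r = 0.923) and Bud31 for Slfn3 (r = 0.906). Among the members, Slfn1 and Slfn2 followed each other (r = 0.936 over 12 arrays) as did Slfn5 and Slfn8 (r = 0.920), while Slfn3 and Slfn9 had r = 0.058.

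**Figure D3:**
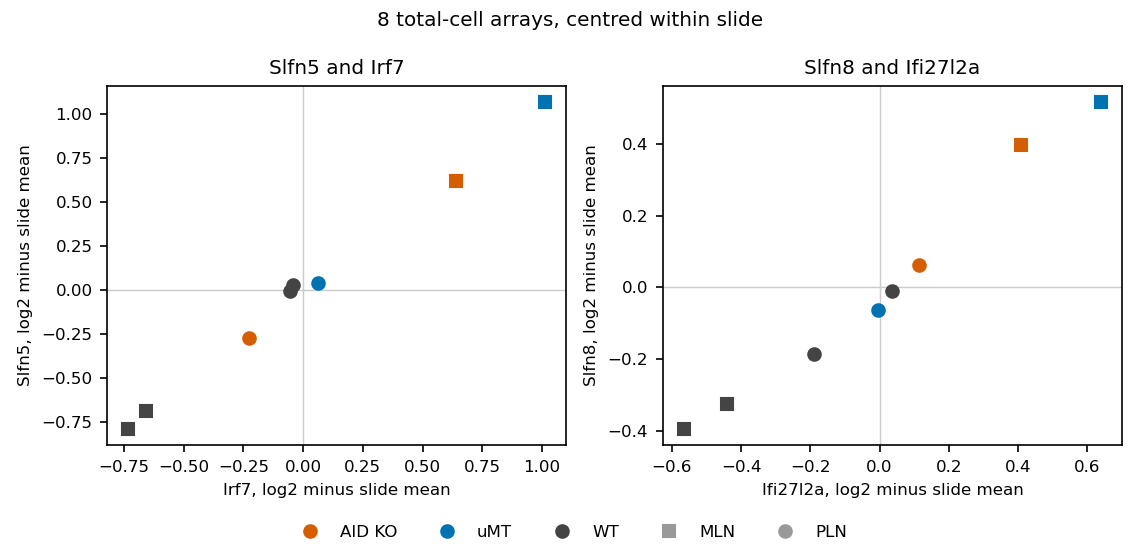
Each point is 1 of the 8 total-cell arrays, squares for MLN and circles for PLN, with both axes in log2 minus the slide mean; AID KO is orange, uMT blue and WT grey. The knockout MLN squares lie at the upper right and the WT MLN squares at the lower left, with Slfn5 at 1.06 in uMT MLN, against −0.79 in the WT MLN array of that slide.

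The arrays held 49.99% to 56.8% of spots well above background, and no spot was saturated. All 13 measured genes of a CD8 T cell identity list were well above background on every array. Summed intensities of other cell types' markers, relative to the 75th percentile, are given for the MLN groups between which Slfn5 differed. Of 13 B cell markers 7 were kept, and Blk and Ebf1 were not well above background on any array. The 7 summed to 6.28 to 6.91 in knockouts, against 5.56 to 5.61 in WT. For the pooled knockouts 3 of the 7 had a positive fitted difference and 4 a negative one, with a median of −0.01. The 2 genotypes differed: beside the WT MLN array of the same slide, the median was 0.45 for AID KO and −0.10 for uMT. In AID KO MLN cells 9 of the 13 were well above background, against 5 in each other MLN sample. Over both nodes all 7 were higher in AID KO than in WT (median 0.42). In uMT 1 was higher and 6 were lower (median −0.27). For macrophages and monocytes 4 of 9 were kept and summed to 2.30 to 2.94 in knockouts, against 3.63 to 3.79 in WT. Adgre1, Lyz2, Mertk and Fcgr1 were not well above background on any array. Of the 4, 3 had a negative fitted difference in MLN and 1 a positive one, with a median of −0.42 and an unadjusted p under 0.05 for 2. Dendritic cell markers, 4 of 8, summed to 70.6 to 113 in knockouts, against 48.8 to 118 in WT, with Flt3, Xcr1 and Clec9a not well above background on any array. In the sorted naive cells the same markers summed to 228 to 256, with 2 to 3 of the 8 well above background. Whether this sum reflects dendritic cells was not tested. The summed ranges overlapped for dendritic cell markers, but all 4 had a positive fitted difference in MLN, as Slfn5 did, with a median of 0.50 and an unadjusted p under 0.05 for 2; this list shares Bst2 with the interferon response list. The sums did not overlap for B cell, macrophage and NK markers. NK markers, 7 of 8, summed to 5.80 to 5.94 in knockouts, against 6.05 to 6.14 in WT, with 5 of the 7 fitted differences positive and a median of 0.16. CD4 T cell markers, 5 of 6, summed to 7.82 to 9.14 in knockouts, against 7.86 to 8.49 in WT. For the pooled knockouts all 5 had a positive fitted difference, with a median of 0.25 and an unadjusted p under 0.05 for 2. Beside the WT MLN array of the same slide, however, their median was −0.23 for AID KO and 0.77 for uMT. Over both nodes 4 of the 5 were lower in AID KO than in WT, and all 5 were higher in uMT. None of these lists had a marker past the adjusted threshold in MLN. Over all features 51.7% had a positive difference there and 13.4% an unadjusted p under 0.05. Neutrophil markers, 5 of 9, summed to 101 to 125 in knockouts, against 91.3 to 128 in WT. Of 7 erythroid markers 1 was kept, at 0.90 to 4.26 in knockouts, against 1.39 to 2.08 in WT. Their part in the results was not tested.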

How the data were processed

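RNA of sorted CD8+ T cells was labelled with Cy3 and hybridized to 12 Agilent arrays, 4 on each of 3 slides. Per the file headers, the deposited scanner files hold the processed intensity of each spot, background-subtracted by Agilent Feature Extraction 11.0.1.1 (also named in the submitters' processing notes), and other values, namely flags for spots well above background, saturated or outlying; the authors' deposited series matrix holds log2 values of 28384 probes. For the results, log2 processed intensities minus each array's 75th percentile (423.9 to 773.5) were used, without control spots and 61 to 342 outlier spots per array. Spots of a probe were averaged, and probes well above background on at least 2 arrays were kept. Of 56605 probes, 32994 had 1 symbol, 0 several and 23611 none.

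The package limma 3.58.1 (R 4.3.3) gave all tests, from a single model of the 12 arrays. Total cells had terms for uMT, AID KO, slide and node; naive cells had an intercept of their own, Sca1p and uMT; contrasts within a node added a knockout by node term. Residual degrees of freedom were 4, or 3 with that term. All p-values are two-sided, adjusted by the Benjamini-Hochberg method across every feature, and called under 0.05. The depth of an array cannot be counted, so the number of arrays limits precision. The fit without the knockout by node term was tested on simulated data, for knockouts against WT over both nodes only. The changes put into the simulated data were larger than any member's difference in that contrast, so differences of the members' size were not covered. That test also does not cover the contrasts within a node. Alternatives were normexp (offset 50) with quantile normalization, on the median signal of a spot in place of its mean; the series matrix; no filter, or 6 arrays; the mean of all probes; no slide term; matched pairs as a replicate block; arrays of 1 cell population; and leaving out each array.

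The genes named are all members, other measured Schlafen genes, the named genes most like each member, and, for each list, up to 4 past the threshold with the largest difference or else those with the lowest p. The members and all lists were chosen with earlier results of these data known. Genotypes are used as the labels give them, and the gene disrupted in AID KO mice is not reported here.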

Additional observations from a re-analysis of the deposited data

How the results depend on the processing

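Values for the 6 members were recomputed under 8 other settings and without each array in turn, and 60 of them changed sign, all of values that had not passed the threshold. The number of members past the threshold in MLN, 1 for knockouts against WT, was 2 after normexp correction and quantile normalization (Slfn1 at 0.80, limma adjusted p = 0.0399) and 0 with no filter, the mean of all probes, no slide term, the replicate block of matched pairs, only total-cell arrays, or any 1 array left out (lowest 0, highest 0). Slfn5 was at 1.35 for the mean of probes, at 1.44 to 1.71 with 1 array left out and at 1.58 in the others of those fits, with limma adjusted p of 0.125 with no filter, 0.126 for the mean, 0.317 with no slide term, 0.108 with the replicate block and 0.0983 with only total-cell arrays. It stayed past the threshold with the series matrix and with the filter at 6 arrays. Where 0 members passed, normexp gave 1 for knockouts against WT over both nodes (Slfn2), 1 for the difference between nodes (Slfn5) and 1 for MLN against PLN in the knockouts (Slfn5 at 0.93, limma adjusted p = 0.0284). The labels name a matched control for PLN only, and the replicate block changed no other call.

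Signs turned under normexp for Slfn3 in AID KO against WT (−0.020; −0.088 with the replicate block), Slfn9 in uMT against WT (−0.011; −0.019 with the mean of probes), Slfn2 in Sca1p against Sca1m (−0.013) and Slfn2 in naive uMT against AID KO (0.091; 0.0064 with the series matrix). The mean of probes turned Slfn5 in Sca1p against Sca1m (0.094) and, in naive uMT against AID KO, Slfn5 (0.24) and Slfn8 (0.13). The cause was not tested.

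Leaving out arrays turned signs within these ranges. For Slfn3 they were −0.042 to 0.59 for knockouts against WT in MLN (negative without the AID KO MLN array), −0.25 to 0.38 in PLN, −0.11 to 0.52 for the difference between nodes, −0.40 to 0.23 for MLN against PLN in knockouts, and −0.26 to 0.26 for AID KO against WT. For knockouts against WT in PLN, Slfn5 ran from −0.26 to 0.0083, Slfn8 from −0.15 to 0.34 and Slfn9 from −0.12 to 0.064. For MLN against PLN, Slfn5 ran from −0.36 to 0.34, Slfn8 from −0.14 to 0.23 and Slfn9 from −0.15 to 0.049, and in knockouts Slfn2 from −0.19 to 0.12. For uMT against WT, Slfn5 ran from −0.0052 to 1.83, Slfn8 from −0.028 to 0.94 and Slfn9 from −0.17 to 0.31, and for AID KO against WT Slfn5 from −0.25 to 1.32. For uMT against AID KO total cells, Slfn1 ran from −0.41 to 0.29, Slfn2 from −0.15 to 0.39, Slfn5 from −0.54 to 1.30, Slfn8 from −0.48 to 0.48 and Slfn9 from −0.43 to 0.050. In naive cells, Sca1p against Sca1m ran from −0.051 to 0.14 for Slfn2 and −0.085 to 0.16 for Slfn9, and uMT against AID KO from −0.10 to 0.089 for Slfn2 and −0.047 to 0.20 for Slfn9. A group left with 1 array was taken to vary like the others. The 12 arrays, with 3 or 4 residual degrees of freedom, limit the precision.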

Other observations

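Some values belong to no comparison above. Slfn4 read −4.75 in WT MLN sample 1 but −6.68 and below in the other MLN samples, and was not well above background in any of them. The dimmest of the 3 Slfn5 probes read −3.26 in uMT Sca1p naive cells, against −4.89 in AID KO Sca1p cells and −4.54 in each Sca1m sample, a difference that the other 2 Slfn5 probes did not show. Ly6a, which is itself induced by interferon, had 2.74 and 3.55 in AID KO and uMT MLN cells, against 1.81 and 1.47 in WT MLN cells. In PLN it had 2.43 and 2.21 in AID KO and uMT cells, against 1.95 and 1.66 in WT cells.

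Among naive cells 34 of the 39 interferon response genes had a positive difference for Sca1p against Sca1m, with a median of 0.20 and 0 called, beside a median of 0.06 for the 6 Schlafen members and 50.3% of all features positive. Of the 20 activation genes 17 had a negative difference there, beside 12623 of 25384 features, with a median of −0.23 and 0 called. Those with the lowest p had opposite signs, Tnfrsf9 at −0.60 ± 0.13 and Ifng at 0.85 ± 0.19 (limma adjusted p = 0.274 and 0.296). Il7r, a survival receptor of naive T cells, was at 0.44 ± 0.10 (limma adjusted p = 0.297).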
